A study of Homo sapiens with 4 samples.

Results

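The T-47D line, an established human line from a ductal carcinoma of the breast that carries estrogen receptor alpha (ER), was compared after 8 h of 17β-estradiol (E2) with the same line at 0 h. The cells were those in the T-47D expression matrix that the authors' barcode calls gave to a single time point. There were 1525 cells at 0 h and 553 at 8 h, or 2078 of the 13703 cells called to 1 time point in the whole series, which also holds an endometrial line, Ishikawa. The study's methods place both lines in medium with phenol red left out and serum stripped of steroids for days before treatment, and E2 was then given at 10 nM. The 0 h cells had vehicle in place of E2, and the methods name DMSO as the vehicle for other assays of the study. Cells of 0, 2, 4 and 8 h were labelled with lipid-anchored DNA tags (MULTI-seq), mixed and run as 1 droplet library, so all time points shared the library preparation.

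Each time point was 1 culture of 1 line, so no value here has a replicate error, and no test was run and no p-value is given. Intervals are exact 95% intervals (Poisson for a level, Clopper-Pearson for a share of cells, and a conditional binomial for a ratio of 2 pools). They cover counting error only and say nothing of how another pair of cultures would differ. A difference between the pools cannot be told apart from a difference between those 2 cultures that E2 did not make.

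ER is a nuclear receptor that stays largely inactive without its hormone. Binding of E2 changes the shape of the receptor, which then binds DNA as a dimer at estrogen response elements, mostly in enhancers, and recruits coactivators or corepressors. In luminal breast cancer cells this raises a set of genes that includes the progesterone receptor and secreted growth factors, lowers another set, and lets cells held without hormone pass from G1 into S phase.

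The pairing of each cell with its time point rests on the 8-base tags, which are shown because every comparison depends on them, in capitals throughout:
0 h tag: AGGAGTCC
8 h tag: TTCTGCCT
The tag that marks 0 h in T-47D marked 8 h in Ishikawa, and the tag that marks 8 h in T-47D marked 0 h there. Of the 18188 barcodes in the T-47D matrix, 4626 had a call to a single time point, 1442 doublet calls were left out, and 12120 barcodes had no call. The pools held 33175309 unique molecular identifiers (UMIs) at 0 h and 12927799 at 8 h, so a level at 8 h is the less precise of the pair. The median cell had 20677 UMIs at 0 h and 22576 at 8 h, and a median mitochondrial share of 10.4% and 10.2%. Of the 2078 cells, 5 had a barcode that also occurs in the Ishikawa matrix.

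The marker genes were those of luminal epithelium. All 18 luminal epithelial markers on the list, among them the keratins KRT8, KRT18 and KRT19, the adhesion protein EPCAM and the pioneer factors FOXA1 and GATA3, reached the minimum level used here, a mean over the 4 time points of 10 CPM (the UMI count of a gene divided by all UMIs of its pool and scaled to a fixed total of 1e6). None of 12 basal and mesenchymal, 10 blood and endothelial or 6 endometrial markers reached it. The basal and mesenchymal list summed to 41.1 CPM at 0 h and 32.1 CPM at 8 h. The blood and endothelial list summed to 2.23 and 1.32 CPM, with 3 of its 10 genes at 0 in both pools. The endometrial list summed to 1.21 and 0.54 CPM, with 4 of 6 genes at 0.

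After 8 h the genes that moved most were higher rather than lower, and they included the best known ER targets. Of 7440 genes at or above the minimum, 174 (2.34% of genes tested) were at least 1.5-fold higher at 8 h and 54 (0.726%) at least 1.5-fold lower, on the scale of log2((CPM at 8 h + 1)/(CPM at 0 h + 1)), which is the log2 fold change given below. At 2-fold the counts were 61 higher and 10 lower, and at 4-fold 6 higher and 0 lower. The rest of the transcriptome differed little, with 88.5% of genes within 0.32 of 0 on that scale and a median log2 fold change of 0.01. Genes counted as higher together went from 9567 to 18150 CPM, and genes counted as lower from 3989.7 to 2266 CPM. The thresholds cut through a continuous range. TYMS (0.59) and FAM133B (0.59) were just inside on the higher side and CHSY1 (0.58) and EXOSC2 (0.58) just outside. On the lower side MPZL2 (-0.59) was just inside and ELF3 (-0.58) just outside.

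**Figure D1:**
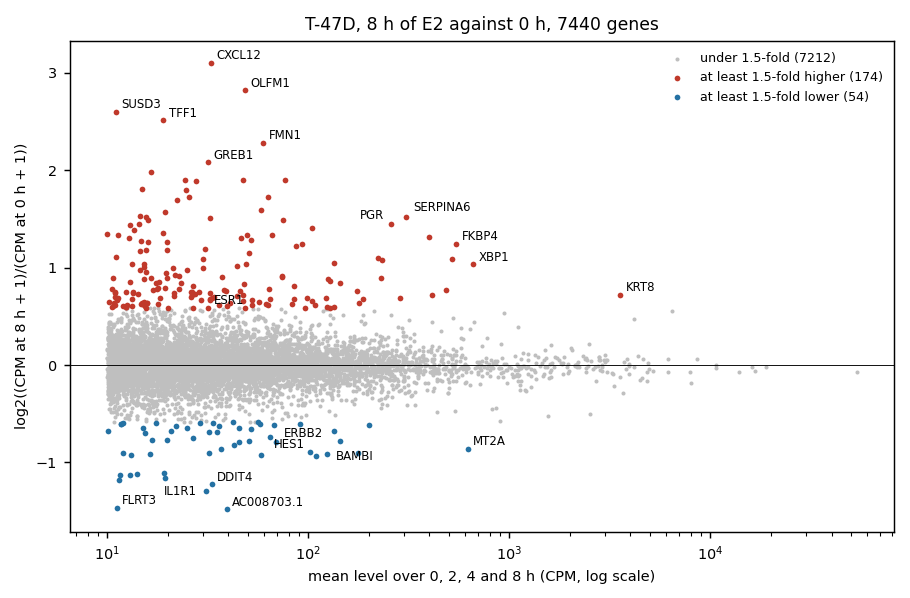
Mean level over the 4 time points (CPM, log axis) against the log2 fold change at 8 h for 7440 genes, 1 point per gene. The 174 genes at least 1.5-fold higher are red and the 54 lower are blue, and CXCL12 has the highest value and AC008703.1 the lowest on this scale (-1.48).

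Most members of the list of genes known to rise with E2 in breast cells were higher. Of 40 genes listed, 28 reached the minimum. Of these, 25 were at least 1.5-fold higher and 0 lower, against 2.34% and 0.726% of all genes tested. The median log2 fold change of the list was 1.35 against 0.01 over all genes tested. The list was drawn up with earlier results of these data known, so its direction is not independent evidence. The minimum is a mean that includes the pools after E2, which favours genes that are higher there. Some members low at 0 h, such as SUSD3 (2.56 CPM) and MYB (4.49 CPM), reached it only through their later levels. The same limit holds for the other lists and for the counts over all genes tested. The 3 members under the threshold were CA12 (0.58), CCND1 (0.48) and PKIB (0.43). The 12 members below the minimum, such as the growth factor gene TGFA and the transcription factor gene EGR3, were not compared.

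CXCL12, which encodes a chemokine that attracts cells carrying its receptor CXCR4, had the highest fold change of all genes tested. Its level was 6.09 CPM at 0 h, then 25.6, 40.3 and 59.9 CPM at 2, 4 and 8 h, with each step upward, and the plain ratio of 8 h to 0 h was 9.83 (8.41 to 11.5). OLFM1, which encodes a secreted glycoprotein best known from neurons, went from 12.1 CPM at 0 h to 38.4, 52.4 and 91.3 CPM, a ratio of 7.57 (6.75 to 8.50). TFF1, the small secreted trefoil protein first described as an estrogen-induced transcript in breast cancer cells, had 4.88, 18.3, 20.4 and 32.6 CPM, a ratio of 6.67 (5.55 to 8.04). All 3 were still climbing between 4 and 8 h. SUSD3, which encodes a membrane protein linked to estrogen-dependent growth, began from only 85 UMIs at 0 h. It had 2.56, 6.94, 13.9 and 20.7 CPM and a ratio of 8.06 (6.29 to 10.4), the widest interval of these 4 genes.

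GREB1, an ER cofactor and itself a standard target, had 10.4 CPM at 0 h, then 31.7, 37.8 and 47.3 CPM (ratio 4.54, 3.98 to 5.20). PGR, the gene of the progesterone receptor and the clinical readout of a working ER, had 129.5, 261, 281 and 355 CPM, so that most of its difference was present at 2 h (ratio 2.74, 2.63 to 2.86). STC2, which encodes the secreted glycoprotein stanniocalcin, showed the same early shape with 27.3, 78.5, 95.5 and 105 CPM. AREG, the gene of the EGFR ligand amphiregulin, had 23.4, 73.6, 76.7 and 79.8 CPM and was nearly flat after 2 h. Of the other members, the inhibitor of IGF signalling IGFBP4 had a log2 fold change of 1.59, the kinase gene SGK3 1.90, the small heat shock protein HSPB8 1.51, the co-chaperone FKBP4 1.24 and the lysosomal protease CTSD 1.10.

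**Figure D2:**
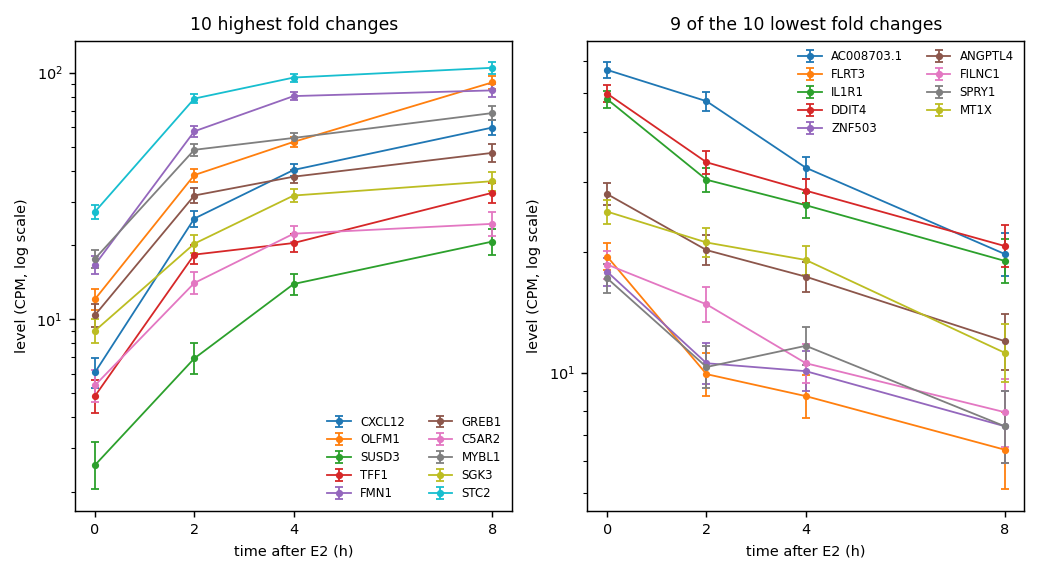
Level (CPM, log axis) at 0, 2, 4 and 8 h of the 10 genes with the highest (left) and 9 of the 10 with the lowest (right) log2 fold change at 8 h. Points are pooled cells of 1 culture and bars are exact 95% Poisson intervals for counting error. The genes were chosen by these same counts, so the gap between their intervals at 0 and 8 h is a description only.

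Outside that list, several genes with fold changes as high were not standard markers of the response. FMN1, which encodes a formin that nucleates actin filaments, had 16.6, 57.8, 80.3 and 84.7 CPM (ratio 5.09, 4.59 to 5.65). C5AR2, a receptor for complement fragment C5a, had 5.40, 14.0, 22.2 and 24.4 CPM, and SFXN2, a mitochondrial carrier, had 11.3, 27.2, 24.0 and 39.7 CPM. PTGES, the prostaglandin E synthase, had 9.59, 23.6, 29.5 and 35.8 CPM. All 4 were higher at 2 h than at 0 h and at their highest at 8 h. At higher levels, SLC9A3R1, a scaffold under the apical membrane, had 210.5, 407, 452 and 525 CPM, the noncoding RNA DSCAM-AS1 had 325, 519.5, 544 and 692 CPM, and the histone demethylase gene KDM4B had 25.05, 50.03, 58.3 and 64.7 CPM.

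The promoter of CXCL12 is shown because this gene had the highest fold change. The window runs from 250 bases before to 50 bases after the start site in RefSeq on GRCh38.p14, chr10:44385048-44385347 on the minus strand, and the capitals mark a half-site of the estrogen response element (AGGTCA, searched on both strands), whose first base lies at -209 from the start:
CXCL12: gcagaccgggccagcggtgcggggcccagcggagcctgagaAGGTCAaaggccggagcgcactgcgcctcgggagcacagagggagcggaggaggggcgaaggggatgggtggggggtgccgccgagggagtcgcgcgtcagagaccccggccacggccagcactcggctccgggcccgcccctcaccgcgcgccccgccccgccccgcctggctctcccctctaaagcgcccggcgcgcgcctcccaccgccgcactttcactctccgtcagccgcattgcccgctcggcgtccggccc
The gene itself spans chr10:44370165-44385097. The half-site is common, being found in 13.8% of 35116 promoter windows of this length, and the full element (GGTCA, 3 bases of any kind, TGACC) was in only 20 of them. The first listed windows of OLFM1 (of 3 listed), SUSD3 (of 1) and FMN1 (of 2) held neither, and the half-site in the other windows is not given. Windows were matched for 79.9% of the higher and 68.5% of the lower genes, so a comparison of motif shares between these sets was void and none is given.

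Most genes of the receptor and its partners were inside the threshold. Of 21 genes for ER, its pioneer factors and its coregulators, 3 were higher and 0 lower, against 2.34% and 0.726% of all genes tested. The median log2 fold change of the list was -0.02. ESR1, the gene of ER itself, had 25.8, 29.1, 32.9 and 39.3 CPM at 0, 2, 4 and 8 h (ratio 1.52, 1.36 to 1.70), just over the threshold. NRIP1, a corepressor that ER induces, had 23.2, 44.3, 30.3 and 38.3 CPM, with its highest value at 2 h. GRHL2, an epithelial transcription factor, had 23.9 and 38.8 CPM at 0 and 8 h. The pioneer factors FOXA1 (-0.13) and GATA3 (-0.02) and the p160 coactivators NCOA1 (0.04), NCOA2 (0.05) and NCOA3 (-0.21) were inside the threshold. TFAP2C (0.58) was just under it, and TFAP2A (-0.36) had the lowest value of the list.

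Among 17 nuclear receptor genes, PGR and the retinoic acid receptor RARA were higher and NR2F1 was lower, beside 2.34% and 0.726% of all genes tested. The median log2 fold change of the list was -0.15. RARA had 15.2, 41.9, 29.2 and 33.5 CPM, with its highest value at 2 h. NR2F1, the orphan receptor COUP-TF1, had 18.6, 8.56, 11.4 and 9.51 CPM, with its lowest at 2 h. The glucocorticoid receptor gene NR3C1 (-0.29) did not pass the threshold.

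Genes for secreted proteins were the other list with a high median. Of 18 tested, 9 were higher and 2 lower, against 2.34% and 0.726% of all genes tested, with a median log2 fold change of 0.61. Of the 9, 7 were also on the list of estrogen targets (CXCL12, OLFM1, TFF1, STC2, AREG, IGFBP4 and CTSD), which leaves the axon guidance ligand SEMA3C (54.5 CPM at 0 h and 103 at 8 h) and AGR3 (76.8 and 124 CPM), a relative of protein disulfide isomerases. The lower members were ligands of the transforming growth factor beta family. BMP4 had 24.6, 14.3, 14.0 and 14.1 CPM, a difference complete at 2 h, and TGFB3 had 43.6, 40.1, 32.3 and 28.0 CPM, a slower course.

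Growth factor and cytokine receptors moved in both directions, with 2 of 13 higher and 2 lower. The shares over all genes tested were 2.34% and 0.726%, and the list median was -0.08. IL6ST, the signalling chain gp130 shared by receptors of the interleukin 6 family, had 52.3, 73.8, 96.7 and 123 CPM (ratio 2.36, 2.20 to 2.53). IGF1R, the receptor of insulin-like growth factor 1, had 19.7, 24.5, 28.1 and 33.2 CPM. ERBB2, the gene of HER2, had 85.0, 79.1, 64.2 and 48.6 CPM, and most of its difference came after 2 h (1.75-fold lower at 8 h, 1.60 to 1.91). IL1R1, the interleukin 1 receptor, was the gene with the third lowest value of all, with 48.2, 30.3, 26.2 and 19.0 CPM (2.53-fold lower, 2.21 to 2.91). The other ERBB members tested, ERBB3 (-0.29) and ERBB4 (0.19), were inside the threshold.

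Of 15 immediate-early and growth-related transcriptional regulators, 6 were higher and 1 lower, against 2.34% and 0.726% of all genes, with a median of 0.07. The proto-oncogene MYB had 4.49, 22.7, 14.5 and 18.2 CPM and its relative MYBL1 had 17.6, 48.6, 54.3 and 68.5 CPM, so MYB was highest at 2 h and MYBL1 at 8 h. RUNX1, a core-binding factor that works with ER at tethered sites, had 6.90, 30.8, 17.4 and 22.5 CPM. IER3, a stress-inducible survival gene, had 123, 299, 241 and 262 CPM. The classical handling-responsive genes JUN (-0.17), JUNB (-0.50) and IER2 (-0.28) did not pass the threshold. HES1, a repressor downstream of Notch, was lower, with 153, 85.9, 85.7 and 82.2 CPM. MYC, an early ER target, stayed under the minimum, with 72 UMIs at 0 h and 99 in the smaller 8 h pool.

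Genes of DNA replication were higher at 8 h, mostly late in the course. All 32 members tested had a log2 fold change above 0, against 3859 of all 7440 genes, with a median of 0.46. Of the 32, 12 were at least 1.5-fold higher and 0 lower, against 2.34% and 0.726% of all genes tested. The 12 covered licensing (MCM3, MCM5, MCM6, MCM7, CDC6, CDT1, ORC6), firing (MCM10, GINS2), the flap endonuclease FEN1, the checkpoint adaptor CLSPN and the ubiquitin ligase subunit DTL. MCM10 had 10.6, 11.5, 16.1 and 23.0 CPM, DTL 9.46, 9.27, 13.9 and 20.4 CPM, and CDC6 11.03, 13.0, 15.9 and 22.4 CPM. None of these 3 had moved past the threshold at 2 h. The summed level of the 32 genes was 1049, 1094, 1186 and 1425 CPM in time order. Clamp gene PCNA (0.39) and the single-strand binding subunits RPA1 (0.03), RPA2 (0.12) and RPA3 (0.12) were inside the threshold.

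The lists on either side of S phase moved less, and the shares over all genes tested were 2.34% higher and 0.726% lower. Of 16 G1 regulators, 3 were higher and 0 lower: E2F1 (15.2 and 29.1 CPM at 0 and 8 h), CCNE2 (12.9 and 20.3 CPM), which encodes a cyclin that drives entry into S phase, and the pocket protein gene RBL1 (8.95 and 14.3 CPM). CCND1, the cyclin D1 gene that ER is known to raise, had 102, 158, 126 and 143 CPM, higher at 2 h than later. Among 25 genes of nucleotide synthesis only TYMS, the thymidylate synthase, passed the threshold, with a list median of 0.29, and among 28 genes of G2 and mitosis only TACC3, with a median of 0.19. CCNB1, the mitotic cyclin, had the lowest value there (-0.23).

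The 8 h culture also held a larger share of cells with RNA of dividing cells. With every cell thinned to 10000 UMIs, 21.2% of cells (19.2% to 23.4%) had a UMI of TOP2A or MKI67 at 0 h and 27.7% (24.0% to 31.6%) at 8 h (32.6% and 41.6% without thinning). TOP2A itself showed how share and level part: its share of cells went from 19.0% to 24.6% and the UMIs per cell with any from 5.81 to 4.43, for a log2 fold change of 0.12. In the 1028 and 323 cells with no UMI of either gene before thinning, the 32 replication genes summed to 729.9 CPM at 0 h and 803 CPM at 8 h, a ratio of 1.10, and 1 of them was at least 1.5-fold higher, with a list median of 0.17. The G1 list there had 0 higher and a median of -0.0041, and 160 of all 7440 genes tested were higher in these cells. In the 497 and 230 cells that had such a UMI the replication genes summed to 1658 and 2202 CPM, a ratio of 1.33, against 1.36 in all cells, and 6 of the 32 were higher, with a median of 0.49. Of all 7440 genes tested, 172 were higher in those cells. The G2 and mitosis list, which contains both genes that defined the split, had a median of -0.12 there. Leaving out cells with these UMIs also removes cells that express replication genes. In the cells that were left, 13 of the 32 replication genes and 7 of the 16 G1 genes had a mean under 10 CPM, where the pseudocount makes a fold change smaller. The part of the share of dividing cells in the values of these lists was not tested. MCM10 had 1.56 and 1.81 CPM in the cells without such a UMI and 28.0 and 49.5 CPM in the cells with one. For the estrogen targets the split made little difference, with 25 of 28 higher in the cells without and 27 in the cells with such a UMI (medians 1.36 and 1.19).

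Most members of the list for ribosome biogenesis shifted upward by a small amount. Of 36 tested, 35 had a log2 fold change above 0, against 3859 of 7440 genes, with a median of 0.30, but only BYSL, needed to assemble the small subunit, passed the threshold (11.5 and 18.0 CPM at 0 and 8 h). The snoRNP genes DKC1 (0.58) and NOP56 (0.58) and the helicase gene DDX21 (0.56) were just under it. In cells with no UMI of TOP2A or MKI67, where all 36 had a mean of at least 10 CPM, the median was 0.29, with 35 again above 0. The summed level was 3623, 3959.8, 4192 and 4305 CPM in time order.

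**Figure D3:**
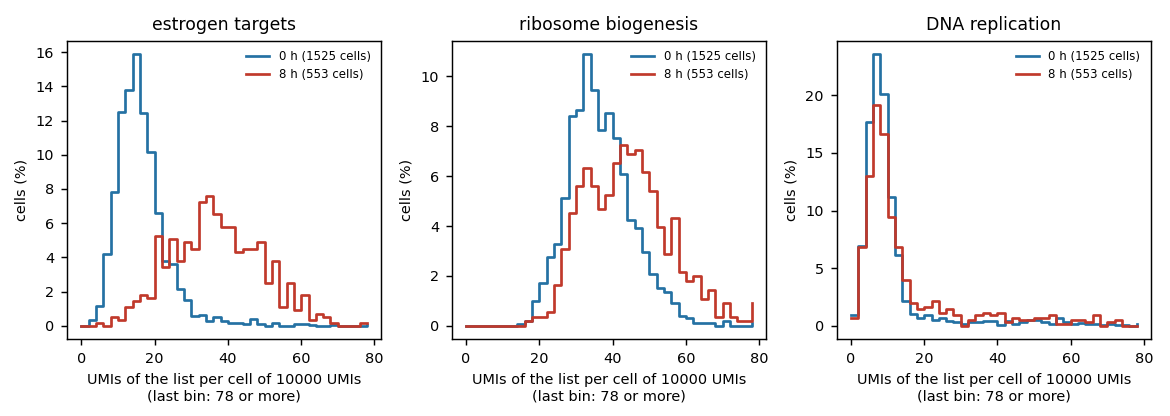
Distribution over cells of the UMIs of 3 gene lists in each cell thinned to 10000 UMIs (x axis), as percent of the 1525 cells at 0 h (blue) and the 553 cells at 8 h (red). The median for estrogen targets was 15 at 0 h and 36 at 8 h, for ribosome biogenesis 35 and 43, and for DNA replication 8 and 9 with a longer upper tail at 8 h.

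Per cell, the estrogen targets shifted as a whole distribution. The middle 90% of cells had 7 to 28 UMIs of the list at 0 h and 17 to 57 at 8 h. For ribosome biogenesis the ranges were 23 to 52 and 27 to 64. For DNA replication the medians were 8 and 9 UMIs, while the upper quartile went from 10 to 15 and the 95th percentile from 38 to 52, so most of the difference lay in the upper tail of cells.

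The lists for protein folding, stress and metabolism were mostly level, and most members past the threshold were also on the list of ER targets. Their counts stand beside 2.34% higher and 0.726% lower over all genes tested. Of 20 heat shock proteins 2 were higher, HSPB8 (14.2, 33.4, 40.3 and 42.5 CPM) and FKBP4 (311, 504, 623 and 737 CPM), a partner of HSP90 in steroid receptor complexes. Of 18 endoplasmic reticulum chaperones and regulators 1 was higher, XBP1, the transcription factor of the unfolded protein response, with 356, 843, 717 and 731 CPM. The chaperones it is known to induce were not, with HSPA5 at -0.11 and DNAJB9 at -0.21. In the integrated stress response list the amino acid transporter SLC7A5 was higher (76.0, 148, 145 and 123 CPM) and DDIT4 lower, out of 14. None of 24 cholesterol synthesis, 15 glycolysis, 5 BCL2 family, 4 interferon-stimulated or 13 mitochondrially encoded genes passed the threshold in either direction. The nearest was HMGCS1 (0.50), the first committed step toward sterols.

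**Figure D4:**
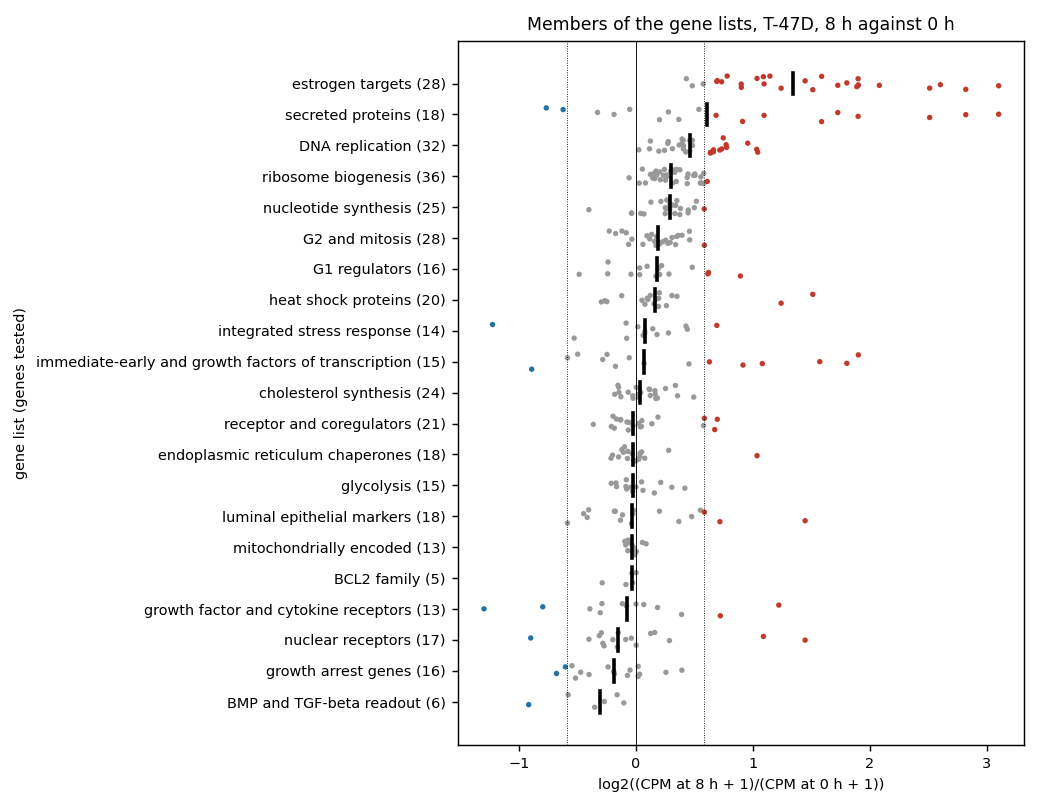
Log2 fold change at 8 h of each tested member of 21 gene lists (points, red at least 1.5-fold higher, blue at least 1.5-fold lower), with the list median as a bar and dotted lines at 1.5-fold. Estrogen targets have the highest median (1.35) and the BMP and TGF-beta readout the lowest of those drawn (-0.31).

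The lower genes were fewer and their differences smaller. With the pseudocount of 1 CPM the lowest log2 fold change was that of AC008703.1 (-1.48) and the next that of FLRT3 (-1.47), while by the plain ratio FLRT3 was the lower of the pair. AC008703.1 (ENSG00000283413), a noncoding gene, had 57.1, 47.7, 32.5 and 19.8 CPM (2.88-fold lower, 2.53 to 3.30). FLRT3, which encodes a membrane protein that binds FGF receptors, had 19.5, 9.91, 8.74 and 6.42 CPM (3.04-fold lower, 2.41 to 3.87). DDIT4, which encodes the mTORC1 inhibitor REDD1, had 49.8, 33.6, 28.5 and 20.7 CPM (2.40-fold lower, 2.11 to 2.74). ANGPTL4, a hypoxia- and PPAR-induced inhibitor of lipoprotein lipase, had 27.9 and 11.99 CPM at 0 and 8 h, NDRG1, which stress and hypoxia raise, 17.4 and 8.66 CPM, and the ubiquitin ligase gene FBXO32, known from muscle atrophy, 148 and 77.0 CPM.

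Other genes at the low end were the zinc finger gene ZNF503 (17.9, 10.6, 10.1 and 7.35 CPM) and the noncoding RNA gene FILNC1 (18.6, 14.8, 10.6 and 7.97 CPM). ZNF503 had most of its difference by 2 h, while FILNC1 came down at each step. At a higher level KYNU, the kynureninase of tryptophan breakdown, had 107, 96.5, 88.6 and 69.9 CPM.

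Of 16 growth arrest genes, 2 were lower and 0 higher, against 0.726% and 2.34% of all genes tested, and the median was -0.19. CITED2, a coregulator that competes for p300, had 184, 115, 124 and 114 CPM, and TP53INP1, a p53-induced gene, had 15.2, 12.1, 9.78 and 9.67 CPM. CCNG2 (-0.55), PNRC1 (-0.52) and BTG1 (-0.47) were below 0 and under the threshold, and PDCD4 (0.39) was on the other side.

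All 6 genes tested as readouts of BMP and TGF-beta signalling were below 0, against 3581 of all 7440 genes, with a median of -0.31. Only BAMBI, a decoy receptor of the pathway, passed the threshold, which 0.726% of all genes tested did on the lower side. BAMBI had 186, 106, 105 and 98.2 CPM. The DNA-binding inhibitors ID1 (-0.27), ID2 (-0.58) and ID3 (-0.35) were under it. Of 4 Wnt and Notch genes tested, HES1 was lower, and its relative HES4 (0.15) was not. SPRY1, a feedback inhibitor of receptor tyrosine kinases, was lower with 17.2, 10.3, 11.7 and 7.35 CPM, while PHLDA1 (0.56), the other MAPK feedback gene tested, was on the opposite side of 0.

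Of the metallothionein genes, which encode proteins that bind zinc and copper, MT2A, MT1X and MT1F were the 3 at or above the minimum, and each was lower. They formed no list of their own and are grouped here after their values were seen. MT2A had 755, 653, 659.7 and 416 CPM, MT1X 25.3, 21.1, 19.1 and 11.2 CPM, and MT1F 72.3, 59.9, 63.2 and 37.7 CPM. These genes are closely similar neighbours on chromosome 16, so reads could be split among them and their separate values are uncertain.

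Among genes with a higher level at 8 h, the largest differences in CPM, rather than in fold, were those of 3 keratins. KRT19 had 4733, 6998, 7150.2 and 6939.5 CPM, KRT8 had 2631, 3467, 3756 and 4332 CPM, and KRT18 had 3114, 4576, 4691 and 4336 CPM. Only KRT8 passed 1.5-fold, with a log2 fold change of 0.72. Keratins have many processed pseudogenes with which reads may be shared, so these levels are uncertain. On the lower side the largest difference was that of the nuclear noncoding RNA MALAT1 (54843 and 52160.2 CPM), and others were those of S100A6 (8519.6 and 7508 CPM), the matrix protein MGP (2862 and 2018 CPM) and the actin ACTB (3862 and 3172 CPM), none of which reached 1.5-fold.

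The courses to 8 h of the genes past the threshold differed in shape. These genes were chosen by their 8 h and 0 h values, which favours an extreme at 8 h. Genes that moved early and were back near their 0 h level at 8 h are left out. The counts below are therefore a description of the chosen genes and not of the whole response. Of the 174 higher genes, 140 had their highest level at 8 h, 8 at 4 h and 26 at 2 h, and 114 were higher at every step than at the one before. Between 2 and 8 h, 38 of them were again at least 1.5-fold higher and 3 at least 1.5-fold lower. The 3 were OSGIN1 (13.4, 60.2, 17.9 and 27.8 CPM), an oxidative stress response gene, the ring finger gene RNF223 (9.43, 34.5, 20.8 and 19.8 CPM) and KCTD6 (4.82, 22.5, 13.0 and 14.2 CPM), an adaptor of a ubiquitin ligase. At the other end, the adhesion gene CADM1 was near its starting level at 2 h and moved later, with 38.3, 43.8, 83.7 and 98.3 CPM, as did THSD4 with 7.75, 9.12, 17.0 and 24.2 CPM. SERPINA6, the corticosteroid-binding globulin, had 169.6, 234, 327 and 490.0 CPM. Of the 54 lower genes, 46 had their lowest level at 8 h and 35 were lower at every step.

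The share of cells with a UMI moved with the level. With cells thinned to 10000 UMIs, the median share over the 174 higher genes was 13.2% at 0 h and 25.6% at 8 h, and over the 54 lower genes 30.8% and 18.4%. These shares come from the counts that chose the genes and are a description. CXCL12 was found in 5.44% of cells (4.36% to 6.70%) at 0 h and 39.2% (35.1% to 43.4%) at 8 h, or 10.4% and 63.7% without thinning. PGR went from 61.7% (59.2% to 64.2%) to 88.4% (85.5% to 91.0%), and FKBP4 from 91.5% to 99.5%. On the lower side IL1R1 went from 34.1% (31.7% to 36.5%) to 14.8% (11.97% to 18.1%), ERBB2 from 54.5% to 36.3% and HES1 from 69.8% to 48.5%. On the higher side the largest differences in share among all genes tested were those of OLFM1 (8.52% to 49.7%), FMN1 (14.6% to 51.5%) and the mitochondrial phosphatase gene PPM1K (24.2% to 59.1%).

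The UMIs per positive cell could differ by more than the share. SERPINA6 went from 59.4% to 79.9% of cells and from 2.79 to 6.15 UMIs per positive cell, and XBP1 from 87.3% to 98.7% of cells and from 4.06 to 7.28 UMIs. HES1, on the lower side, went from 2.24 to 1.88 UMIs per positive cell, less in proportion than its share. TFF1 was found in 3.67% of cells at 0 h and 16.1% at 8 h. A share of cells with a UMI can hold free RNA taken up in droplets, and no cell type that should lack these genes was in this library. The cells of all time points were mixed before the droplets were made, so free RNA would be common to both pools, and its part in the low shares at 0 h was not tested.

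**Figure D5:**
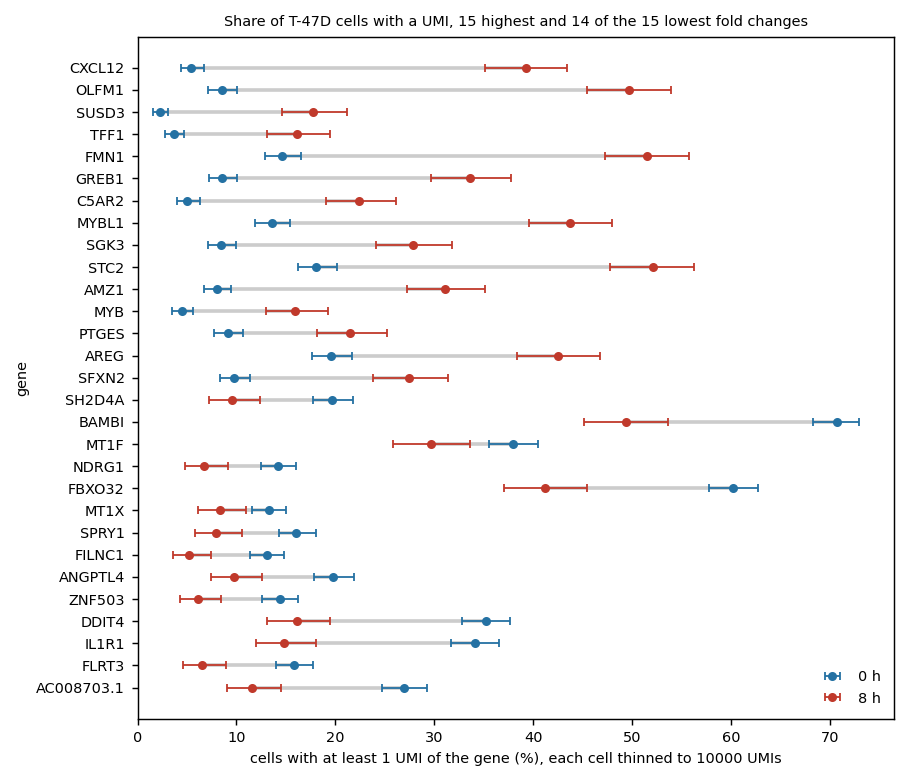
Percent of cells with at least 1 UMI of each gene at 0 h (blue) and 8 h (red), each cell thinned to 10000 UMIs, for the 15 genes with the highest (top) and 14 of the 15 with the lowest (bottom) fold change. Bars are exact 95% Clopper-Pearson intervals for counting error, and CXCL12 goes from 5.44% to 39.2% of cells while IL1R1 goes from 34.1% to 14.8%.

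In Ishikawa cells, the endometrial line treated in the same way, most of these genes did not pass the threshold in the same direction. Of 6404 genes at or above the minimum in both lines, 118 were higher in the breast line and 32 in Ishikawa. Of these, 12 were in both sets (10.2% of the first and 37.5% of the second). The 10.2% stands beside 32 of all 6404 genes higher in Ishikawa, and the 37.5% beside 118 of 6404 in T-47D. The 12 included the ubiquitin ligase gene SIAH2 (26.1 and 58.9 CPM at 0 and 8 h here, against 14.1 and 26.5 CPM in the other line), the LIM-domain coactivator FHL2 (23.2 and 44.2 CPM, 21.9 and 40.5) and the amino acid transporter SLC7A5. On the lower side 28, 21 and 2 genes gave 7.14% and 9.52%, which stand beside 21 and 28 of all 6404 genes in turn. The shared lower genes were NR2F1 and the protease gene PRSS8. An excess of shared genes over these shares was not tested. CXCL12 and OLFM1 were under the minimum in Ishikawa, as was PGR with 0.915 and 4.71 CPM at 0 and 8 h. XBP1 (118 CPM at 8 h, log2 fold change -0.05), KRT8 (-0.29) and IL6ST (-0.03) were expressed there and inside the threshold. So were NRIP1 (0.51), MYBL1 (0.51), TPD52L1 (0.49) and FKBP4 (0.46), which were above 0. No test of a difference between lines was run for any gene.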

How the data were processed

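The deposited T-47D matrix holds UMI counts per gene and cell, made by the authors with Cell Ranger 3.1.0 on hg38 (submitters' processing notes), and time points came from the authors' deposited MULTI-seq calls. Ishikawa cells were kept by the limits the study states (UMIs from 8500 to 35000, genes from 2700 to 6000, mitochondrial share under 7%). Counts of cells called to 1 time point were summed and divided by the pool total (CPM), and genes of mean 10 CPM or more over the 4 T-47D pools were compared with a pseudocount of 1 CPM. The rule of size was 1.5-fold. Each sequenced 3′ tag counts once, so levels do not scale with transcript length. For shares, cells were thinned at random to 10000 UMIs, which every cell reached. With 1 culture per time point no test was made. The scripts were tested on simulated data.

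Named genes were the 15 highest and 15 lowest fold changes, the 6 at either end of the differences in CPM and in share, list members past 1.5-fold or at either end of a list, and ESR1, PGR, GREB1, TFF1, CXCL12, MYC, CCND1, MYB, IER3, TOP2A and MKI67. Genes named for their time course, Ishikawa values or neighbours, list members inside the threshold, and the genes outside the lists at higher levels, were chosen after their values were seen. The comparison, rule and gene lists were chosen with earlier results of these data known. Of the genes this rule names, 2 are not reported here. Locations and promoters are RefSeq on GRCh38.p14, the same build as the files. Tools were Python 3.11.15, numpy 2.4.6, scipy 1.17.1, pandas 2.3.3, and edgeR 4.0.16 in R 4.3.3 for TMM factors.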

Additional observations from a re-analysis of the deposited data

Results flagged for a closer look

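IER3 moved in opposite directions in the 2 cell lines. Its log2 fold change at 8 h was 1.08 in T-47D, from 123 to 262 CPM, and -1.38 in Ishikawa, from 24.0 to 8.61 CPM. With a single culture for each line and time, this difference was not tested.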

How the results depend on the processing

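Counts of genes higher and lower (174 and 54) depended most on the minimum and the fold: 413 and 200 with no minimum, 51 and 17 at 50 CPM, 529 and 330 at a fold of 0.32 on the log2 scale, 61 and 10 at 2-fold. The lower count was 84 in cells under 10% mitochondrial UMIs and 116 in cells with a UMI of TOP2A or MKI67, a setting chosen after seeing the data. In these last cells 60.8% of genes past the threshold were higher, against 76.3% in all cells, and the share was 61.6% at the fold of 0.32, 85.9% at 2-fold and 72.0% to 73.6% with TMM or median-of-ratios factors, whose counts were 162 and 63 and 167 and 60. The median log2 fold change of all genes tested was between -0.01 and 0.01 under every setting. In cells without a UMI of TOP2A and MKI67, a split that also removes cells expressing cell-cycle genes, FAM111B and CDCA5, both counted as higher, changed sign (-0.10 and -0.11), 144 of the 174 genes stayed at or past 1.5-fold (134 in cells with such a UMI), and the E2F1 share difference was -1.23 points. The causes were not tested. With 553 cells at 8 h, genes near 10 CPM at 8 h rest on little more than 100 UMIs there. Lower genes can rest on fewer, such as FLRT3 with 83 UMIs at 8 h and SPRY1 and ZNF503 with 95 each. No paired analysis was possible because each time point was 1 culture, and no replicate could be left out.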

Other observations

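Few pairs of neighbours on a chromosome were both past the threshold, and in those pairs both were higher or both lower. Of 7317 pairs of tested genes that lie next to each other among the tested genes with a location (7340 of 7440), 13 pairs had both members past 1.5-fold, 9 both higher, 4 both lower and 0 in opposite directions. Among all genes tested 2.34% were higher and 0.726% lower, and an excess of pairs over these shares was not tested. The lower pairs include the metallothionein genes MT2A with MT1F and MT1F with MT1X. Some neighbours lie far apart, such as L3MBTL3 and ENPP1 with 1666582 bases between them. SUSD3 and CARD19 lie at chr9:93058701-93113283 with log2 fold changes of 2.60 and 1.30. PPP4R4 (1.17) and the corticosteroid-binding globulin gene SERPINA6 (1.52) lie at chr14:94174322-94323336, and the colipase-like genes CLPSL2 (1.44) and CLPSL1 (1.30) at chr6:35776598-35794039. The replication licensing gene CDC6 (0.96) and RARA (1.09) lie at chr17:40287879-40357643 with 4523 bases between them. PCP4 (1.49) and the noncoding RNA DSCAM-AS1 (1.09), known from luminal breast cancer cells, lie at chr21:39867438-40385358 with 453691 bases between them. Genes that overlap or lie close can share reads, and the part of this was not tested.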
